A study of Mus musculus with 2 samples.

Results

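Fracture of the tibia injures the muscle that wraps the bone, and 10 genes that mark muscle repair and the building of new fibers were followed here in spatial transcriptomes of the mouse fracture callus. The genes were taken by symbol from the deposited count tables, and 9 of the 10 had an entry among the 19430 genes named there. They were *Myh3*, *Myh8*, *Tnnt2*, *Pax7*, *Myf5*, *Myog*, *Mymk*, *Mymx* and *Ncam1*, whereas *Myod1* had no entry and was not analysed here. The calluses came from 1 female control mouse, Nf1[+/flox] and negative for Postn-cre, and 1 female littermate, Postn-cre;Nf1[flox/-], called *Nf1*Postn. In the latter, Cre driven by the periostin (*Postn*) promoter deletes the floxed *Nf1* allele in periosteal cells, while the other allele is null in every cell of the animal, muscle included. Both mice were 8 weeks old, and the distal tibia was collected 10 days after it was broken and stabilized with an intramedullary pin. Tissue around the callus was trimmed before fixation, so the amount of muscle left on each callus and the genotype cannot be told apart. Both calluses lay in 1 paraffin block, and the 2 sections analysed, which the labels number as biological replicates, were read as 2 cuts through the same 2 animals.

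Adult muscle regenerates from satellite cells, which are held in reserve beneath the fiber sheath and carry the transcription factor *Pax7*. After injury they divide as myoblasts under *Myf5* and *Myod1*, switch on *Myog* as they leave the cell cycle, and fuse into fibers with the help of the membrane proteins myomaker (*Mymk*) and myomixer (*Mymx*). A young fiber first builds its contractile lattice from developmental isoforms, among them embryonic myosin (*Myh3*), perinatal myosin (*Myh8*) and the troponin T best known from the heart (*Tnnt2*), and later replaces them with adult ones, while *Ncam1*, an adhesion molecule of regenerating or denervated fibers, is also made by nerve, glia and skeletal progenitors.

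The myogenic transcription factors bind the E-box, written CANNTG, and the 200 bases that end 51 bases before the RefSeq start are shown for a factor of this family, *Myog*, and a gene of the new fiber, *Myh3*, whose stretches overlap no annotated exon. For *Myog* the RefSeq start is not the gene start of the files. *Myog* (Ensembl ENSMUSG00000026459) lies on the plus strand at chr1:134217727-134220286 of mm39, and the stretch at chr1:134217492-134217691 held 1 CANNTG. *Myh3* (ENSMUSG00000020908) lies on the plus strand at chr11:66969126-66993117, and the stretch at chr11:66968876-66969075 also held 1. The matches are in capitals, and the sequences are those of RefSeq for GRCm38.p6, placed on mm39 by exact match.
Myog: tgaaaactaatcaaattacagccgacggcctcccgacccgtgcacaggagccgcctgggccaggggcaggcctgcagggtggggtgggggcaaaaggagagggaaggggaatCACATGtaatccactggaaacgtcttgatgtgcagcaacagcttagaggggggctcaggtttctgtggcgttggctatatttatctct
Myh3: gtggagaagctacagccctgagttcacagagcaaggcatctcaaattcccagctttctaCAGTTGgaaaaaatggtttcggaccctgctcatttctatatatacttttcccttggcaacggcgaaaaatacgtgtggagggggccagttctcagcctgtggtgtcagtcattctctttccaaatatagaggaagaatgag
Of all 32851 promoter stretches of this length, 59.05% held at least 1 CANNTG, a motif that reads the same on both strands, and 10.3% held the form CAGCTG, which neither of the 2 stretches had. The stretches of *Myh8*, *Pax7* and *Myf5* held 0 CANNTG, and those at 2 starts of *Tnnt2* held 4 and 1. Of these, the stretches of *Myh8*, *Pax7* and *Tnnt2* overlap annotated exons. A match is a description of these letters only.

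The method reads gene-specific probe pairs that hybridize to fixed tissue on a grid of barcoded spots 100 µm apart, each of which can cover several cells, and counts unique molecular identifiers (UMIs). The 6380 spots held a median of 5718.5 to 7053 UMIs in the control and 2030 to 3239.75 in *Nf1*Postn, and 2711 barcodes occurred in both sections. Levels are given as CPM, the UMIs of a gene per 1000000 UMIs of all genes in a group of spots, with exact Poisson 95% intervals that cover counting error only. With 1 mouse per genotype, no test between genotypes or regions was possible, and the intervals do not hold the variation between animals. Over all spots the targeted gene, *Nf1*, was read at 87.8 and 79.0 CPM in the control of sections 1 and 2 and at 65.6 and 49.6 CPM in *Nf1*Postn. Where its probes lie relative to the deleted part is not known here, so the values do not check the labels. Spots rich in mature muscle, by a split at 38965 CPM of 13 adult fiber genes that include no member, made up 13.5% and 30.9% of the control spots of sections 1 and 2, and 65.3% and 81.0% of the *Nf1*Postn spots. Cartilage spots, over 64579 CPM of 11 cartilage genes and touching others of their kind, numbered 369 and 190 in the control and 0 and 26 in *Nf1*Postn.

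*Myh8*, the perinatal myosin, was higher in *Nf1*Postn in both sections. Over all spots it was read at 9.36 CPM in the control of section 1 and 42.0 CPM in the control of section 2, against 86.4 CPM in *Nf1*Postn of section 1 and 134.5 CPM in *Nf1*Postn of section 2. Both *Nf1*Postn values lay above both control values. *Myh3* had 5.01 CPM in the section 1 control, 26.2 in the section 2 control, 32.9 in section 1 *Nf1*Postn and 32.25 in section 2 *Nf1*Postn. *Tnnt2* had 9.44 and 45.3 CPM in the control of sections 1 and 2, and 60.1 and 64.7 CPM in *Nf1*Postn. For these developmental sarcomere genes, the control sections differed from each other more than the *Nf1*Postn sections did, and the section 2 control came close to the *Nf1*Postn values of *Myh3*. Since a spot pools several cells, fewer new fibers and less RNA per fiber cannot be told apart.

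*Myog*, which drives myoblasts to become muscle cells, was read at 7.08 and 18.1 CPM in the control of sections 1 and 2, and at 41.0 and 43.6 CPM in *Nf1*Postn. *Mymx*, which opens the fusion pore, had 1.18 and 3.47 CPM in the control against 11.3 and 10.0 CPM in *Nf1*Postn. For both genes the 2 *Nf1*Postn values were within counting error of each other and above the control. *Mymk*, which prepares the membranes for fusion, did not follow this order. It had 0.811 and 3.88 CPM in the control, from 11 and 47 UMIs, and 3.18 and 2.84 CPM in *Nf1*Postn, from 11 and 17 UMIs.

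The stem cell factors were sparse. *Pax7* had 12 UMIs in the section 1 control and 22 in the section 2 control, and 20 and 46 UMIs in *Nf1*Postn of sections 1 and 2, which gives 0.885, 1.82, 5.78 and 7.69 CPM in that order. *Myf5* had 11, 17, 17 and 23 UMIs in the same order, or 0.811, 1.40, 4.91 and 3.84 CPM. A spot rarely held more than 1 UMI of either gene, with a maximum of 2. In the control, *Pax7* was still read at 5.31 [3.20 to 8.30] CPM in muscle-rich spots of both sections and at 0.68 [0.38 to 1.12] CPM in other spots. For *Myf5* these levels were 3.64 [1.94 to 6.22] and 0.68 [0.38 to 1.12] CPM. In *Nf1*Postn, *Pax7* had 7.68 [5.70 to 10.13] CPM in muscle-rich and 5.45 [3.11 to 8.85] CPM in other spots. Its order was reversed in section 1 *Nf1*Postn, at 4.59 against 7.32 CPM from 9 and 11 UMIs. *Myf5* had 5.38 [3.745 to 7.48] and 1.70 [0.55 to 3.97] CPM in these spots of *Nf1*Postn. *Ncam1* was the opposite case, at 71.9 and 76.1 CPM in the control and 83.8 and 62.8 CPM in *Nf1*Postn, with no order between the genotypes.

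**Figure D1:**
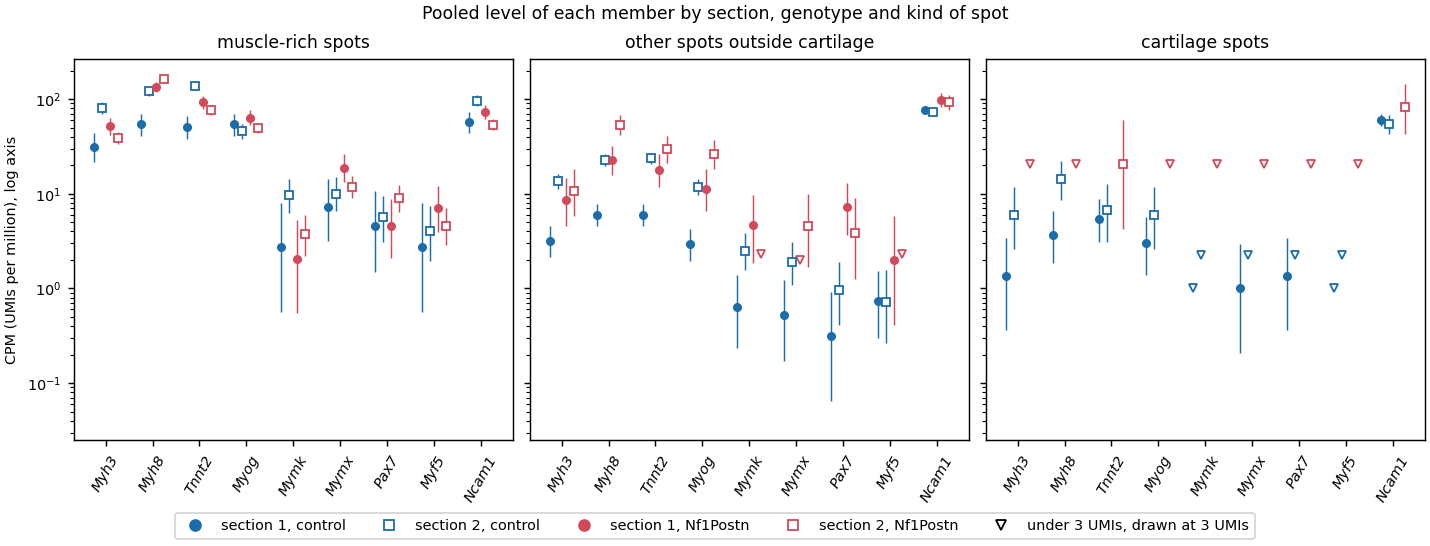
Level of each member (CPM, log axis) by section and genotype, in muscle-rich spots, in other spots outside cartilage and in cartilage spots. Bars are exact 95% Poisson intervals of the counts, and all points come from 1 mouse per genotype. Open triangles mark members with under 3 UMIs, drawn at 3 UMIs. In muscle-rich spots Myh8 lies at 54.0 and 122 CPM in the control and at 135 and 162 CPM in Nf1Postn. In other spots outside cartilage it lies at 6.01 and 22.9 CPM in the control and at 22.6 and 53.1 CPM in Nf1Postn.

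Set against the control over all spots, 6 members had the 50 UMIs in each section required for comparison, and 3 of them, *Myh8*, *Myog* and *Mymx*, were at least 2-fold higher in *Nf1*Postn in both sections, while none was lower. Of all 11851 genes compared in this way, 4.21% were higher by this rule and 1.58% were lower. *Myh8* was 9.22-fold higher in section 1 and 3.20-fold higher in section 2, a pooled log2 ratio of 2.24 [2.10 to 2.38]. *Mymx* was 9.55-fold and 2.89-fold higher (pooled log2 ratio 2.21 [1.73 to 2.71]). The 50 UMIs counted both genotypes together, and in section 1 *Mymx* had 16 in the control and 39 in *Nf1*Postn. It was thus compared only with the help of its *Nf1*Postn UMIs, so its place among the 3 is not independent of its ratio. *Myog* was 5.79-fold and 2.41-fold higher (1.80 [1.58 to 2.02]).

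*Myh3* and *Tnnt2* were past 2-fold in section 1 alone and so missed the rule. *Myh3* was 6.57-fold higher in section 1 and 1.23-fold higher in section 2, and *Tnnt2* was 6.37-fold and 1.43-fold higher. *Ncam1* had a pooled log2 ratio of -0.07 [-0.20 to 0.06], the only ratio of the 6 whose interval included 0. Section 1 taken alone had 5 members past 2-fold. Among the members with too few UMIs for the rule, *Pax7* had log2 ratios of 2.71 and 2.08 in sections 1 and 2, *Myf5* 2.60 and 1.46, and *Mymk* 1.97 and -0.45.

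Adult muscle RNA was also more abundant in *Nf1*Postn in both sections. The 13 adult fiber genes summed to 19195 and 30731 CPM in the control of sections 1 and 2, and to 85824 and 149244 CPM in *Nf1*Postn, and 13 of 13 were past the rule (median log2 ratio 2.24, against -0.09 over all genes compared). Its part in the ratios of the members was not tested. Of the other genes known from new fibers, 5 of 8 were higher and none lower, namely *Csrp3* (log2 ratio 2.27), *Klhl40* (2.10), *Mybph* (2.40), *Myl4* (1.51) and *Xirp1* (2.03). Of 8 further satellite cell and myoblast genes only *Myf6*, a factor of mature fibers, was higher (2.22), and of 7 further myocyte and fusion genes only *Chrnd*, a subunit of the acetylcholine receptor, was higher (2.15), while the cell cycle brake *Cdkn1c* had a log2 ratio of 0.09.

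Markers of other cells differed as well, and their part was not tested. Of 9 Schwann cell genes 5 were higher in *Nf1*Postn (median 1.89), and the list summed to 190.1 and 193.4 CPM in the control and 350.4 and 511.9 CPM in *Nf1*Postn. Of 11 cartilage genes 10 were lower, as were 3 of 5 osteoblast genes and 1 of 5 heart and smooth muscle genes compared (*Cnn1*, log2 ratio -1.86), whereas 0 of 8 macrophage genes and 0 of 6 fibroblast genes compared were past the rule. The heart genes *Myh6* and *Nppa* were sparse. *Myh6* had 9, 8, 12 and 19 UMIs and *Nppa* 9, 4, 4 and 6 in section 1 control, section 1 *Nf1*Postn, section 2 control and section 2 *Nf1*Postn. These groups held 13562254, 3462224, 12122419 and 5984157 UMIs of all genes, so the counts are not levels and do not compare the genotypes.

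**Figure D2:**
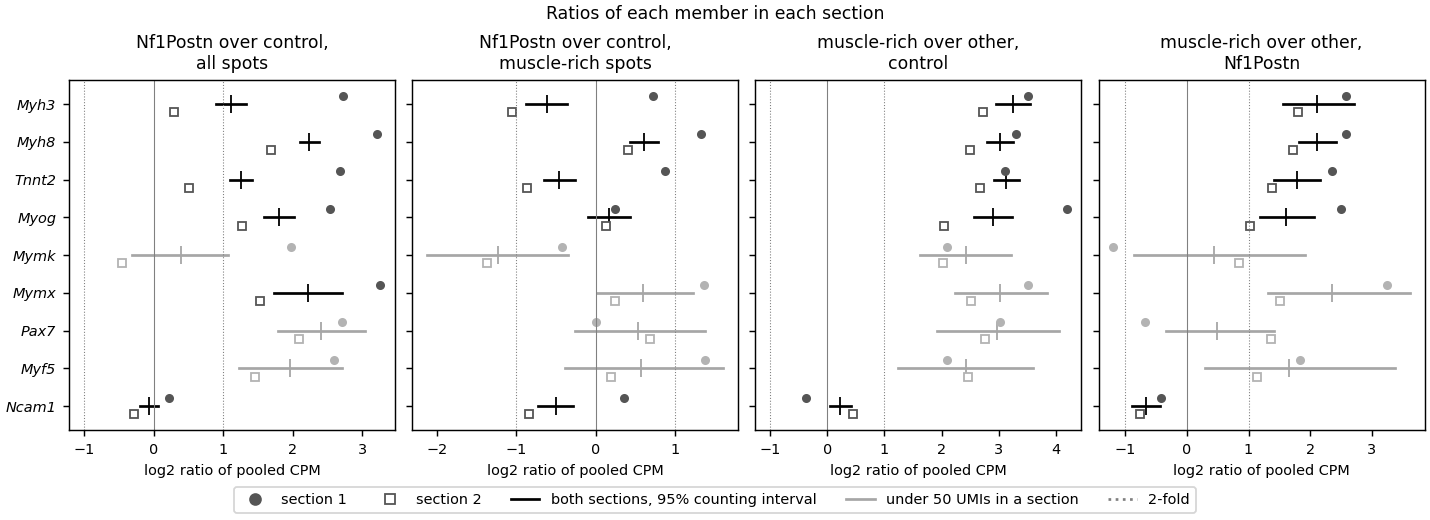
Log2 ratio of CPM of each member, for Nf1Postn over control in all spots and in muscle-rich spots, and for muscle-rich over other spots in each genotype; circles are section 1, squares section 2, bars the 95% counting interval of both sections pooled, gray marks members with under 50 UMIs in a section, and dotted lines a 2-fold difference. Myh8, Myog and Mymx lie past 2-fold in both sections over all spots, and no member does within muscle-rich spots.

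Most members with enough UMIs were higher where mature muscle was. In the control, 4 of the 5 members with enough UMIs were at least 2-fold higher in muscle-rich than in other spots in both sections and none was lower, against 3.98% of all genes higher and 1.12% lower. *Myh3* was read at 31.1 and 80.5 CPM in muscle-rich spots of the control in sections 1 and 2, and at 2.73 and 12.2 CPM in its other spots. *Myog* was read at 54.0 and 45.5 CPM in muscle-rich spots, 18.2-fold and 4.14-fold its level elsewhere. The pooled log2 ratios were 3.25 [2.95 to 3.56] for *Myh3*, 3.13 [2.91 to 3.36] for *Tnnt2*, 3.02 [2.79 to 3.25] for *Myh8* and 2.90 [2.57 to 3.23] for *Myog*. The UMIs required were counted over both kinds of spots together. Other spots of the section 1 control held 34 UMIs of *Myh3* and 37 of *Myog*. Both genes were thus compared only with the help of their muscle-rich UMIs, so their place in the count is not independent of their ratios.

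In *Nf1*Postn the same comparison again put 4 of 5 members higher and none lower, against 5.46% and 3.06% of all genes. Other spots of section 1 *Nf1*Postn held 13 UMIs of *Myh3*, 34 of *Myh8*, 27 of *Tnnt2* and 17 of *Myog*. Each of these was thus compared only with the help of its muscle-rich UMIs. *Myh8* was read at 135 and 162 CPM in muscle-rich spots of *Nf1*Postn and at 22.6 and 48.8 CPM in its other spots. The pooled log2 ratios were 2.11 for *Myh3*, 2.12 for *Myh8*, 1.78 for *Tnnt2* and 1.61 for *Myog*. These ratios depended on where the line around muscle was drawn. With only the 20% of spots richest in the adult fiber genes called muscle, they were -0.51, -0.0046, -0.68 and -0.25. Pooled, spots at the top of the muscle scale were thus not richer in the 4 genes than the rest of the *Nf1*Postn callus. Most of these spots, 785 against 341, lay in section 2. In section 1 *Nf1*Postn, spots with over 16% of UMIs from adult fiber genes held more of each gene than all its spots together. They had 40.4 against 32.9 CPM of *Myh3*, 160.1 against 86.4 of *Myh8*, 86.8 against 60.1 of *Tnnt2* and 53.9 against 41.0 of *Myog*. Only the intervals of *Myh8* were apart. Spots with 8 to 16% there held more than those over 16% of *Myh3* (47.2 CPM), *Tnnt2* (103.8) and *Myog* (74.1), and less of *Myh8* (144.2). The intervals of these 2 classes overlapped for each gene.

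*Ncam1* was the exception among the members with enough UMIs. It had 56.8 and 96.6 CPM in muscle-rich and 73.2 and 70.8 CPM in other spots of the control, and 73.0 and 53.9 CPM against 97.9 and 91.3 CPM in *Nf1*Postn. The pooled log2 ratio was 0.23 [0.05 to 0.41] in the control, with opposite signs in its sections, and -0.67 [-0.89 to -0.44] in *Nf1*Postn. Cartilage spots of the control held 60.3 and 54.6 CPM of it.

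Within muscle-rich spots few genes of any kind met the same rule between the genotypes. Of 5 members compared, 0 were higher and 0 were lower in both sections, against 0.174% of all genes higher and 0.311% lower. That count is near the share of all genes and is not a result about the members. *Mymx*, with 37 UMIs in *Nf1*Postn and 8 in the control of section 1, had too few to be compared. Its log2 ratios were 1.37 in section 1 and 0.24 in section 2. *Myog* had the least difference, with 54.0 and 45.5 CPM in the control against 63.8 and 49.7 CPM in *Nf1*Postn, a pooled log2 ratio of 0.16 [-0.10 to 0.44]. *Myh8* was higher in both sections, at 135 against 54.0 CPM in section 1 (log2 ratio 1.32) and 162 against 122 CPM in section 2 (0.41).

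The embryonic isoforms turned around between the sections. *Myh3* had 51.5 CPM in *Nf1*Postn against 31.1 in the control of section 1, but 38.9 against 80.5 CPM in section 2, which gives log2 ratios of 0.73 and -1.05. *Tnnt2* had 92.3 against 50.4 CPM in section 1 and 75.8 against 138 CPM in section 2, with log2 ratios of 0.87 and -0.86. The sum of *Myh3*, *Myh8* and *Tnnt2* was 136 CPM in the control and 279 CPM in *Nf1*Postn of section 1, and 340 and 276 CPM in section 2. Pooled, it was 277 CPM in each genotype, a log2 ratio of -0.0014 that was 1.04 without section 2. The adult fiber genes in the same spots summed to 145920 and 89502 CPM in the control of sections 1 and 2, and to 139511 and 190121 CPM in *Nf1*Postn, so the muscle-rich spots of section 2 were not alike in their share of adult muscle.

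The balance between the 2 developmental myosins was compared between groups only, because probes differ between genes. There were 1.74 [1.12 to 2.73] *Myh8* UMIs per *Myh3* UMI in muscle-rich spots of the section 1 control and 1.51 [1.26 to 1.82] in the section 2 control. *Nf1*Postn had 2.62 [2.08 to 3.33] in section 1 and 4.15 [3.52 to 4.92] in section 2. Both *Nf1*Postn values were above both control values, although the intervals overlapped in section 1. In *Nf1*Postn the balance also differed with the share of adult fiber genes in a spot. Within section 1 *Nf1*Postn, spots with a share of 4 to 8% held 51 *Myh8* and 37 *Myh3* UMIs, and those over 16% held 107 and 27. In section 2 *Nf1*Postn these classes held 113 and 45, and 297 and 68. The balance did not rise steadily there, since spots with 1 to 4% held 73 and 16, and those with 8 to 16% held 322 and 63. The control did not show the rise from the class of 4 to 8% to that over 16%. Its classes held 17 and 11, then 16 and 10 in section 1, and 125 and 70, then 53 and 39 in section 2. Over muscle-rich spots the share was larger in *Nf1*Postn in section 2 only. The part of adult muscle in the difference between genotypes was not tested.

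Related genes were compared in the same spots. Among 7 new-fiber genes that are not members and had enough UMIs, 0 were higher and 1 was lower in *Nf1*Postn, *Ankrd1*, a stretch-induced repeat protein, with a log2 ratio of -1.71. Among 7 myocyte and fusion genes and 4 satellite cell genes that are not members, none was past the rule either way. Schwann cell genes were higher here too, in 2 of 5 compared, *Mbp* (1.64) and *Sox10* (1.56).

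The share of spots with a UMI depends on depth, which was lower in *Nf1*Postn. *Myh8* was detected in 5.59% and 16.1% of control spots of sections 1 and 2 and in 11.8% and 23.5% of *Nf1*Postn spots. With each spot thinned to 1000 UMIs and shallower spots left out (45 and 83 in the control, 215 and 113 in *Nf1*Postn), the shares were 1.39%, 3.66%, 4.35% and 8.80% in that order. Cartilage spots of the control had 0.813% and 1.58% after thinning, and 20 of the 190 in section 2 were muscle-rich as well. *Ncam1* went from 37.1% and 34.0% of control spots and 16.3% and 18.2% of *Nf1*Postn spots to 6.47%, 7.79%, 7.55% and 4.99% after thinning, close to the 5.96% and 6.32% of control cartilage.

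Spots with several UMIs of the developmental sarcomere genes touched each other in places. Patches were drawn as groups of at least 10 touching spots, each with 2 or more UMIs of *Myh3*, *Myh8* and *Tnnt2* together, a rule chosen after the map had been seen, so neither the levels of these 3 genes inside them nor the share of their UMIs there is a finding. The section 1 control had 42 such spots and no patch. *Nf1*Postn of section 1 had 1 patch of 86 spots. The section 2 control had 4 patches with 124 spots, the largest of 42, and *Nf1*Postn of section 2 had 2 patches with 146 spots, the largest of 129.

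These patches took 6.41%, 6.97% and 9.38% of the spots of section 1 *Nf1*Postn, the section 2 control and section 2 *Nf1*Postn. They lay in muscle-rich spots for 94.2% and 92.5% of their area in *Nf1*Postn and for 66.9% in the section 2 control. Of all spots, 65.3% and 81.0% were muscle-rich in *Nf1*Postn of sections 1 and 2, and 30.9% in the section 2 control. They also held 17.8%, 11.4% and 19.2% of all UMIs, so they were deeper than the rest of their callus, and the part of depth in drawing them was not tested.

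**Figure D3:**
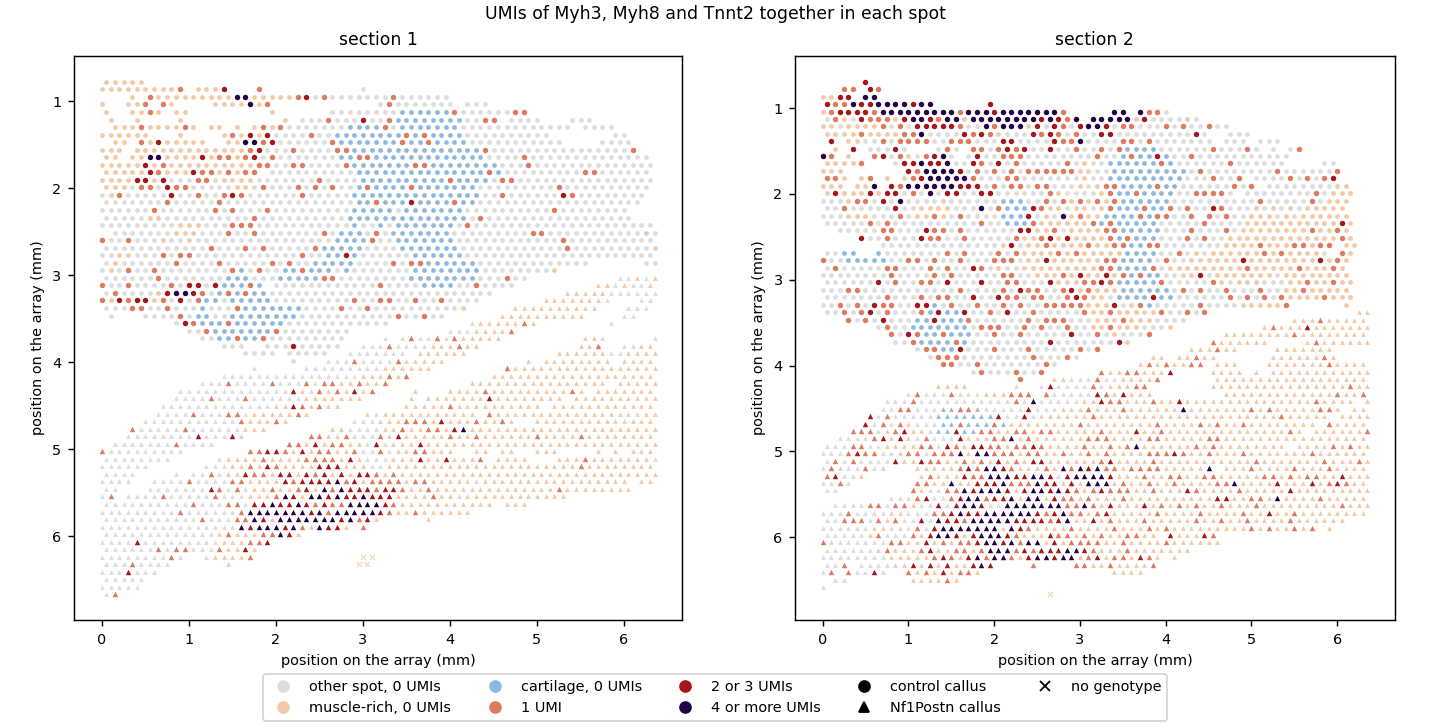
Summed UMIs of Myh3, Myh8 and Tnnt2 in each spot of both sections, drawn to scale by position on the array (mm), with muscle-rich and cartilage spots coloured where they held none, circles for the control and triangles for Nf1Postn. High spots touch each other in 1 patch of 86 spots in section 1 Nf1Postn, in 4 patches in the section 2 control and in 2 patches in section 2 Nf1Postn.

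*Myog*, *Mymx* and *Ncam1*, which had no part in drawing the patches, were higher inside them than in all muscle-rich spots outside them in the same callus and section. The patches also hold spots that are not muscle-rich. *Myog* was read at 102 CPM inside against 45.4 CPM outside in section 1 *Nf1*Postn, at 68.0 against 24.7 in the section 2 control and at 118 against 32.2 in section 2 *Nf1*Postn, with log2 ratios of 1.17, 1.46 and 1.88. *Mymx* was read at 30.9 against 12.6 CPM, 18.8 against 1.95 CPM and 30.5 against 6.26 CPM in the same order (log2 ratios 1.298, 3.27 and 2.28). *Mymk* had 15.9 against 3.25 CPM in the section 2 control and 10.4 against 1.42 CPM in section 2 *Nf1*Postn, with only 1 UMI in the section 1 patch.

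*Ncam1* had log2 ratios of 1.24, 0.56 and 0.90, although it did not favor muscle-rich spots as a whole. *Pax7* had ratios of 0.22, 1.48 and 0.66 with intervals that included 0 in each. *Myf5* had -0.43 in the section 2 control and 0.42 in section 2 *Nf1*Postn, also with intervals that included 0. The other new-fiber genes did not share 1 course. *Myl4*, an atrial and fetal light chain of myosin, had 1.93, 2.07 and 2.46 and stood highest among them in section 2 *Nf1*Postn, and *Nes* had 1.04, 0.84 and 0.78. By contrast *Mybph* had -1.18, 0.41 and -0.44, *Csrp3* -0.39, 1.29 and 1.045, and *Klhl40* -0.31, 0.56 and 0.26. *Chrnd* had 2.09, 2.29 and -0.46, and the adult fiber genes together had -0.26, 0.26 and -0.39.

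Macrophage, fibroblast and Schwann cell genes also differed between the patches and all muscle-rich spots outside them, near or far, and their part was not tested. In section 2 *Nf1*Postn the patches lay 0.4 to 1.75 mm from cartilage, whereas 635 of its 1261 muscle-rich spots lay beyond 2 mm. The part of distance in these ratios was not tested either. The log2 ratios inside over outside were 0.48, 0.32 and 1.42 for the summed macrophage genes, 0.40, 0.30 and 1.38 for the fibroblast genes, and 0.56, -0.06 and -2.22 for the Schwann cell genes in section 1 *Nf1*Postn, the section 2 control and section 2 *Nf1*Postn.

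The distance to callus cartilage was the last axis of comparison, measured from each spot to the nearest cartilage spot of the same callus and section, with cartilage itself left out. Section 1 *Nf1*Postn had no cartilage spot and gives no distance, so *Nf1*Postn rests on section 2 alone. In the control, 2 of 5 members compared, *Myh3* and *Myh8*, were at least 2-fold lower within 1 mm of cartilage than beyond it in both sections, and none was higher, against 2.96% of all genes lower and 1.13% higher. *Myh3* had 12.4 CPM within and 41.25 CPM beyond 1 mm (log2 ratio -1.74), and *Myh8* had 22.6 and 55.2 CPM (-1.29). The 13 adult fiber genes were all lower within 1 mm too, with a median of -2.02.

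Restricted to muscle-rich spots of the control, none of 4 members compared was past the rule in either direction, against 0.148% of all genes higher and 0.223% lower. Of the 13 adult fiber genes 0 were past it as well. So few genes met the rule here that the count does not show whether the order was lost. *Myh3*, with 34 UMIs in these spots of section 1, was not compared. *Tnnt2* had 152 CPM within and 80.9 CPM beyond 1 mm, with log2 ratios of 2.16 in section 1 and 0.32 in section 2. *Myh8* had ratios of opposite sign, 1.76 and -0.43. Muscle-rich spots of the section 1 control within 0.5 mm of cartilage numbered only 4.

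In *Nf1*Postn of section 2, 0 of 6 members compared over all spots were higher and 0 lower within 1 mm, beside 14.4% of all genes higher and 6.2% lower in this single section. With so few members, this count is near the share of all genes and is not a result about the members. Within muscle-rich spots 3 of 6 were higher and none lower, against 17.8% and 6.37% of all genes. *Tnnt2* had 151 CPM within and 59.1 CPM beyond 1 mm (log2 ratio 1.35 [1.02 to 1.67]). *Mymx* had 25.1 and 8.91 CPM (1.495 [0.63 to 2.33]), and *Myog* 87.3 and 41.1 CPM (1.09 [0.67 to 1.501]). The other 3 had ratios of 0.55 for *Myh3*, 0.89 for *Myh8* and 0.72 for *Ncam1*. In the same spots 11 of the 13 adult fiber genes were at least 2-fold lower near cartilage (median -1.55), and so were 4 of 8 Schwann cell genes compared, while 6 of 7 macrophage genes, 5 of 5 osteoblast genes and 3 of 5 fibroblast genes compared were higher.

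Finer steps showed no single course over the groups. In muscle-rich spots of section 2 *Nf1*Postn, *Myh8* was read at 180.7, 299, 331, 140.9 and 44.1 CPM from 0 to 0.5, 0.5 to 1, 1 to 1.5, 1.5 to 2 and over 2 mm from cartilage. *Tnnt2* was read at 86.9, 184, 155, 26.3 and 21.6 CPM over the same steps. *Mymx* was read at 24.3, 25.5, 25.6, 9.29 and 0.490 CPM, the last from 1 UMI in 635 spots. *Myh8* and *Tnnt2* thus had their highest levels between 0.5 and 1.5 mm, whereas *Mymx* had nearly the same level in the first 3 steps.

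The adult fiber genes followed another course in these spots, from 67699 CPM next to cartilage through 82569, 179754 and 211860 to 235294 CPM beyond 2 mm. In the section 2 control, *Myh3* was read at 22.2, 94.0, 139.8 and 92.7 CPM in the first 4 steps, the last step holding only 15 spots. *Tnnt2* was read there at 69.2, 251, 129 and 121 CPM. *Myh8* was read there at 62.3, 159, 120.1 and 183 CPM, highest in the last of these steps. In the section 1 control, the 4 spots within 0.5 mm had the highest values, with 115.8 CPM of *Myh3*, 540.5 of *Myh8*, 733.5 of *Tnnt2* and 579 of *Myog*. These came from 3, 14, 19 and 15 UMIs, and the *Myh3* interval of 23.9 to 338.5 CPM covered the value of the next step. Farther out, *Myh3* was read at 62.4, 33.0 and 18.5 CPM from 0.5 to 2 mm, and beyond 2 mm none of 34 spots held a UMI of it, which allows up to 19.2 CPM for 3 counts.

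**Figure D4:**
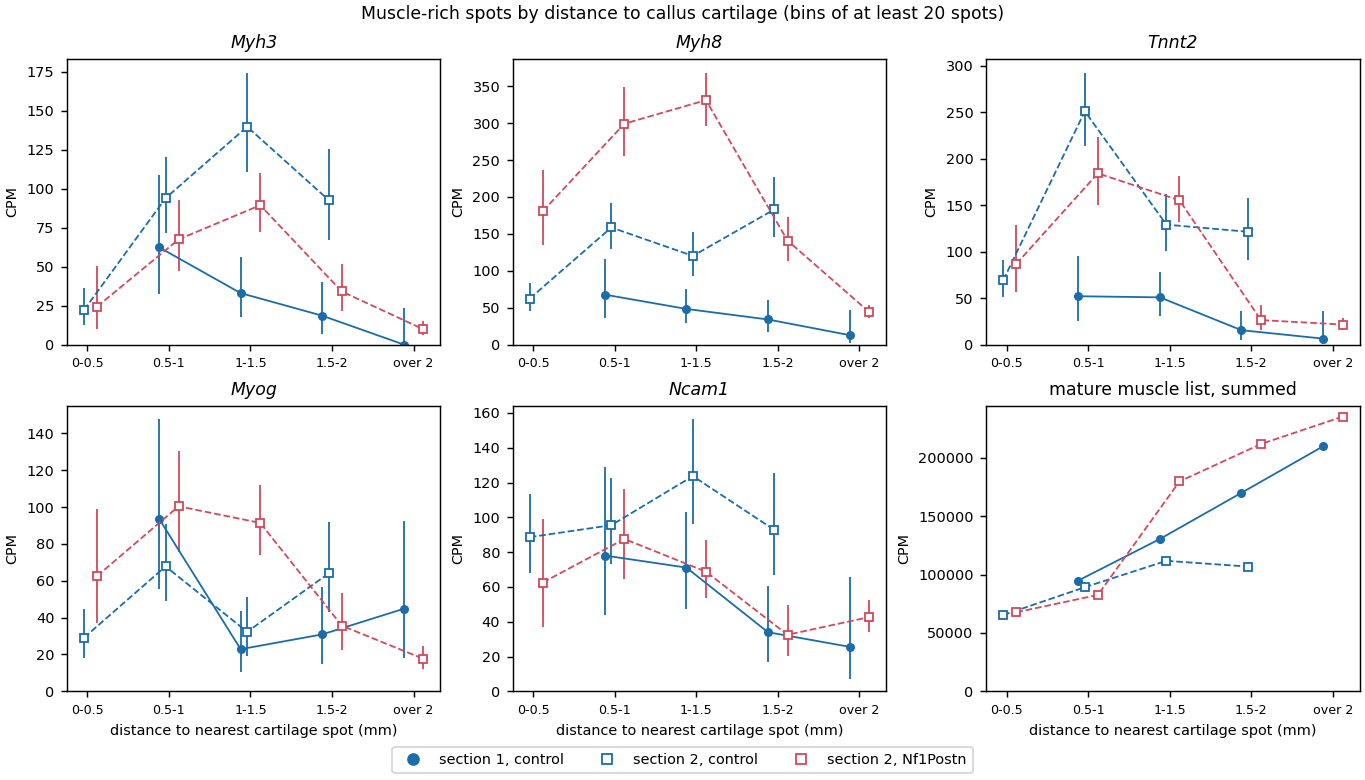
Level (CPM) in muscle-rich spots of Myh3, Myh8, Tnnt2, Myog, Ncam1 and the summed adult fiber genes by distance to the nearest cartilage spot (mm), for the section 1 control and both genotypes of section 2; bars are exact 95% Poisson intervals and steps with under 20 spots are left out. In section 2 Nf1Postn, Myh8 reaches 331 CPM at 1 to 1.5 mm and 44.1 CPM beyond 2 mm, while the adult fiber genes climb to 235294 CPM.

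Spots were also ordered by how much of their RNA came from adult fiber genes, with classes chosen after the values had been seen. In section 2 *Nf1*Postn, *Myh8* had 55.4 CPM where these genes gave 1 to 4% of UMIs, 177 CPM at 4 to 8%, 334 CPM at 8 to 16% and 101.4 CPM over 16%. *Tnnt2* had 30.4, 126, 165 and 36.2 CPM in these classes. The spots in the last class, 742 of 1556, thus held less of both genes than the class before, with intervals apart.

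*Myh8* and *Tnnt2* did not show it with intervals apart in the other groups. In the section 2 control, *Myh8* had 28.5, 88.2, 168 and 183.5 CPM in the same classes, and *Tnnt2* had 29.6, 84.7, 208 and 249 CPM, the last class holding 39 spots. Section 1 *Nf1*Postn also had its highest *Myh8* value, 160.1 CPM, over 16%, against 144 CPM at 8 to 16%. The section 1 control had 54.0 CPM of *Myh8* at 8 to 16% and 34.3 CPM over 16%, with overlapping intervals. *Myog* in section 2 *Nf1*Postn went from 83.9 CPM at 8 to 16% to 34.8 CPM over 16%, and in the section 1 control from 90.0 [58.3 to 132.9] to 23.6 [11.8 to 42.2] CPM, with intervals apart in both.

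**Figure D5:**
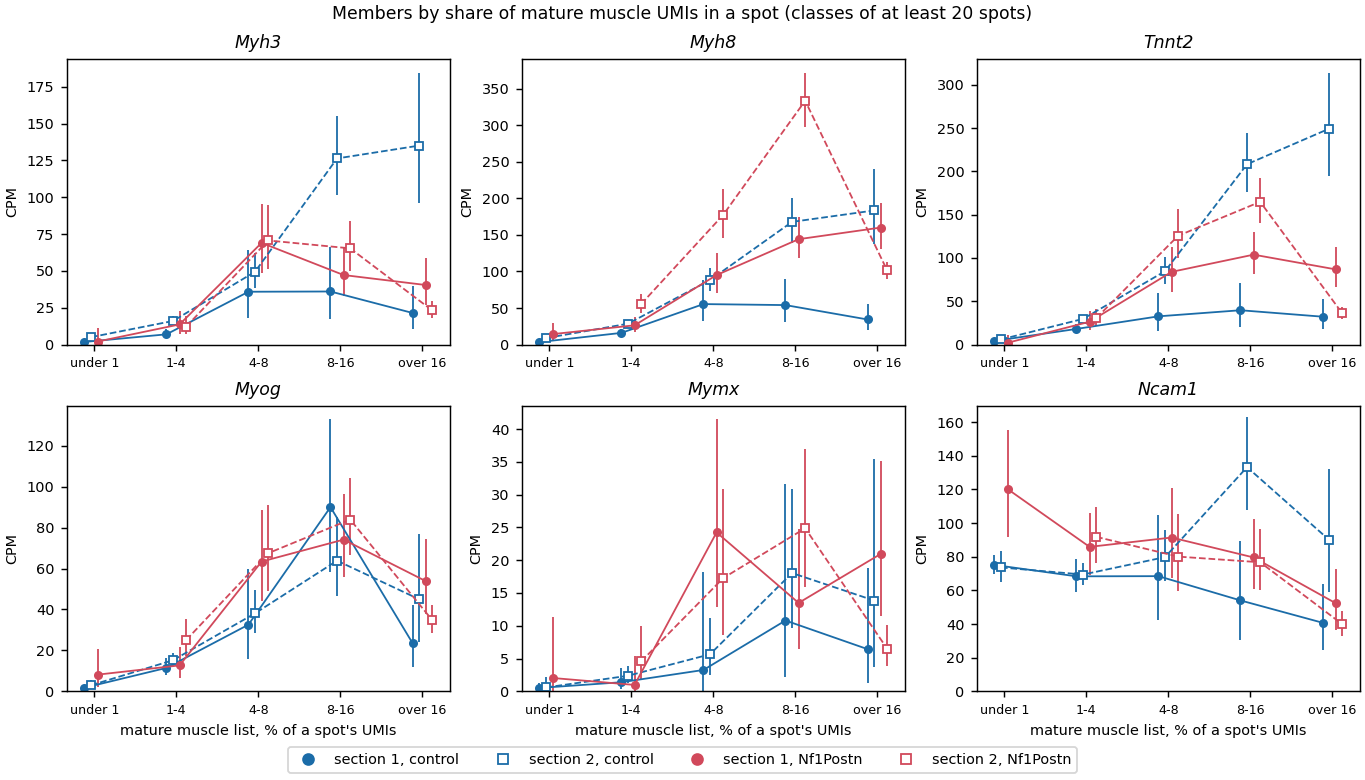
Level (CPM) of the members by the percentage of a spot's UMIs that came from the 13 adult fiber genes, by section and genotype; bars are exact 95% Poisson intervals and classes with under 20 spots are left out. Myh8 in section 2 Nf1Postn is highest at 8 to 16% (334 CPM) and lower over 16% (101.4 CPM), while in the section 2 control it is 168 and 183.5 CPM in these classes.

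Single spots showed the members of the fusion step together with those of the new fiber. Of the 43 muscle-rich spots with *Mymk*, 76.7% also held *Myog*, against 10.7% of muscle-rich spots without *Mymk*, and 62.8% held *Tnnt2*, against 13.7%. Of the 97 with *Mymx*, 52.6% held *Myog*, against 10.3%, and 55.7% held *Tnnt2*, against 13.1%. Both fusion genes were found in 10 spots, which is 23.3% of the *Mymk* spots and 10.3% of the *Mymx* spots, against 3.03% *Mymx* in spots without *Mymk* and 1.17% *Mymk* in spots without *Mymx*. Of the 67 with *Pax7*, 2 held *Myf5*, or 2.99%, against 1.51%. Of the 279 with *Myh3*, 37.3% held *Myog*, against 8.95%. Spots with a fusion gene were deeper in most groups, with a median of 7926 UMIs for *Mymk* spots of section 2 *Nf1*Postn against 3236 for the rest, and the part of depth in these shares was not tested.

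Over 274 tiles of 500 µm with at least 10000 UMIs, the genes most like each member by Pearson's r of log2(CPM + 1) were largely other genes of the sarcomere, as a description over tiles that share 2 sections and their depth. *Tnnt2* was most like *Tnni1*, the slow troponin I (r = 0.6001), *Myh3* (0.557) and *Mymx* (0.501). *Myh3* was most like *Tnnt2*, *Myl4* (0.514) and *Igfn1* (0.462), *Myh8* like *Tnni1* (0.505), *Tnnt2* (0.5002) and *Lmod2* (0.453), and *Mymx* like *Tnnt2*, *Myl4* (0.444) and *Myh3* (0.438).

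*Myog* was most like *Srpk3*, a muscle-specific kinase (0.466), *Myh8* (0.450) and *Tceal7* (0.440). *Pax7* was most like *Myh8* (0.334), *Sync* (0.317) and *Pla2g4e* (0.305). *Ncam1* had no sarcomere gene among its 3 nearest, which were *Trip6* (0.480), *Rsl1d1* (0.465) and *Rnaseh2a* (0.461), and its r with the summed adult fiber genes was -0.224. *Myf5* and *Mymk* had under 100 UMIs and were not searched.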

How the data were processed

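Visium spatial transcriptomes of formalin-fixed, decalcified fracture calluses were measured in 2 sections of 1 block, each with the control and the *Nf1*Postn callus of 1 mouse. Per the labels and the study's methods, the authors aligned probe reads with Space Ranger 1.3.0 to mm39 and exported UMIs per gene and spot from Partek Flow. The values deposited by the authors were read as estimated counts, since 10 entries that join several identifiers, none a member, are means and not whole. An entry without a gene name held 6.8e-05% and 3.8e-05% of UMIs and was left out of the genes. The authors deposited a genotype for each spot, and 5 spots have none. By what rule spots were assigned to a genotype is not given in the sources used here. Probe pairs per gene, and whether probes of close relatives such as the myosin heavy chains cross-react, are not given in the sources used here, so levels were not compared between genes.

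UMIs were summed over spots and divided by all UMIs of these spots (Python 3.11.15, numpy 2.4.6, scipy 1.17.1, pandas 2.3.3, matplotlib 3.10.9). A gene was compared where it had at least 50 UMIs in each section, with the UMIs of both groups of spots added. It was past the rule where it differed at least 2-fold the same way in both sections. A sparse gene could thus be compared through the group where it was high. Muscle-rich spots lay above an Otsu split of the summed adult fiber genes. Cartilage spots were the top 10% for the cartilage genes that touched at least 2 others, with at least 10 required for a distance. Ratios of fewer than 3 UMIs used 3 as a bound. The rule and intervals were tested on simulated counts with counting error only. Changed genes had the same fold in both sections and more UMIs than the minimum. How the rule behaves for sparse genes, or where the sections differ, was therefore not tested. Because sections share their animals, no p-value was computed.

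The named genes were all members, the genes of 10 lists (mature muscle, satellite cell and myoblast, myocyte and fusion, developmental sarcomere and new fiber, cartilage, Schwann cell, heart and smooth muscle, macrophage, osteoblast, fibroblast), and the 3 genes most like each member with at least 100 UMIs. The members and lists were chosen with earlier results of these data known. *Myod1*, *Cdh15* and *Actc1* had no entry in the tables. The patches and the classes of adult muscle share were chosen after seeing the data. Alternatives were leaving out a section, TMM factors (edgeR 4.0.16 in R 4.3.3), spots of at least 1000 UMIs, thinning, means over spots of log2(CPM + 1), no minimum, and other limits of muscle, cartilage and distance.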

Additional observations from a re-analysis of the deposited data

Results flagged for a closer look

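The ratio of the level within 1 mm of cartilage to the level beyond it, over all spots, was below 1 in both control sections and not below 1 in *Nf1*Postn, which rests on section 2 alone. In *Nf1*Postn the log2 ratio was 0.03 for *Myh3*, 0.32 for *Myh8*, 0.77 for *Tnnt2* and 0.50 for *Myog*, beside a median of 0.42 over all genes compared. In the control the median over all genes compared was 0.05. These genes were picked because their signs differed between the genotypes. The log2 ratio of section 2 *Nf1*Postn minus that of the control, pooled over both sections, was 1.77 for *Myh3*, 1.61 for *Myh8*, 1.55 for *Tnnt2* and 1.5 for *Myog*. The difference was not tested.

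The 5 spots without a genotype, which enter no comparison, held 3496 UMIs. They gave 572 CPM of *Myh8*, from 2 UMIs with an interval of 69.3 to 2066 CPM, against 24.8 CPM in the control, and 858 CPM of *Ncam1*, from 3 UMIs with an interval of 177 to 2507 CPM, against 73.9 CPM.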

How the results depend on the processing

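The number of members at least 2-fold higher in *Nf1*Postn over all spots was 3, and 4 or 5 from a single section. With the mean over spots of log2(CPM + 1) it was 0, with 1 lower, and without a minimum of UMIs it was 5. That mean takes a spot without a UMI as 0, so it follows the share of spots with a UMI, which depends on depth. Its counts here and below are therefore not a 2-fold comparison of levels. For muscle-rich over other spots, the control count of 4 became 0 with the mean of log2(CPM + 1) and 8 without a minimum, and the *Nf1*Postn count of 4 became 0 with that mean and 0 with the 20% of spots richest in adult muscle. Under the latter the *Nf1*Postn log2 ratios turned to -0.514 for *Myh3*, -0.00456 for *Myh8*, -0.675 for *Tnnt2* and -0.247 for *Myog*, and the summed members, at 1.78, had 0.764, or 0.15 with the mean of log2(CPM + 1). Within muscle-rich spots, the summed sarcomere members had a genotype log2 ratio of -0.0014, which ranged from -0.298 without section 1 to 1.04 without section 2, with 0 to 1 members higher and 0 to 1 lower.

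For the distance to cartilage over all control spots, the count of 2 lower members became 0 with the mean of log2(CPM + 1), 1 with the top 5% of spots or an Otsu split as cartilage, 1 with a split at 1.5 mm and 4 without a minimum. In muscle-rich control spots, 0 to 3 members were higher and 0 to 1 lower in a single section, and 1 was higher without a minimum. In *Nf1*Postn over all spots, the Otsu split gave 4 higher and 1.5 mm gave 5, while 0.5 mm gave 1 lower and no minimum 1 lower. In its muscle-rich spots the count of 3 became 5 with the richest 20%, 6 with the Otsu split, 1 at 0.5 mm and 5 at 1.5 mm. The cause was not tested. A value was called near the main value when it lay within the standard deviation of the values of the 2 sections. Where only 1 section had the comparison, the counting interval was used, and counts of members had a fold limit. The more the sections differed, the wider this limit was, so these numbers do not measure how firm a result is. Of the values and counts recomputed for the comparisons, 98 stayed near the main value and 29 moved. Of those for single members 389 stayed, 138 moved and 4 turned, and of the shares of spots 1 stayed and 17 moved. TMM factors (0.941 to 1.14) moved 1 of these, *Myog* between genotypes in muscle-rich spots, to 0.071. No paired analysis was possible because no test was made, and the ratios within each section stand beside the pooled ones. Depth limits *Pax7*, *Myf5* and *Mymk*, which had 100, 68 and 86 UMIs in all.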
